A study of Mus musculus with 12 samples.

Results

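The family described here is that of the epidermal growth factor (EGF), with 6 ligands (Hbegf, Areg, Ereg, Tgfa, Btc and Nrg1) and the 4 ErbB receptors (Egfr, Erbb2, Erbb3 and Erbb4). These 10 genes were taken by gene name from the 55862 genes of the deposited table, and all 10 were found. The family was chosen by its FPKM levels across the 4 groups, which were known from an earlier look at these 12 samples, so the levels and differences of the 10 genes are given as a description and support no claim that the family is unusual. A total of 4 groups with 3 samples each were profiled by RNA-seq. ASTs were primary cortical astrocytes of newborn C57BL/6 mice, grown as a monolayer in serum-containing medium and collected at day 0. A-iSCs were such astrocytes after 5 days as floating spheres on agarose. P56-NPCs were cells dissociated from the adult subependymal zone (postnatal day 56, as the group name states). P0-NPCs were cells dissociated from the hippocampus on the day of birth. The strain was C57BL/6 for all samples by the labels, with the substrain C57BL/6J for both NPC groups by the methods. No transgene or sort formed the groups, but their media differed, with serum for ASTs and a B27 supplement for P56-NPCs. The sources do not say whether the 3 samples of a group came from separate animals or cultures, so the spread between them may be technical. The paper's methods speak of independent experiments in general, without tying them to these samples.

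EGF family ligands are made as membrane-anchored precursors, and metalloproteases at the cell surface cut them free. The ligands bind ErbB receptor tyrosine kinases, which then pair up and signal through adaptor proteins to the Ras-ERK and PI3K-Akt cascades. ERBB2 binds no known ligand and works as a partner, while ERBB3 has little kinase activity of its own. In the brain, EGFR ligands are used to expand neural stem cells in culture, and neuregulin signaling through ERBB3 and ERBB4 is known from glial and interneuron development.

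Levels are in FPKM, fragments per kilobase of gene divided by a library size. The library size behind the deposited values was 0.744 to 1.22 times the fragments counted in each sample. Differences between groups therefore depend on this scaling, and other scalings were tried as alternatives. The samples held 17077780 to 24452419 fragments, and a count of 0 allowed up to 3 fragments, which for 1 kilobase of gene was a level between 0.103 and 0.187 FPKM. Before the results, 2 libraries have to be named. AST replicate 2 and A-iSC replicate 3 lay farther from the other 2 replicates of their groups than those lay from each other (chi-square per degree of freedom of the fragment counts 39.5 and 40.9 against 2.51 among ASTs, and 95.1 and 75.5 against 12.3 among A-iSCs). The labels were also checked against cell type markers. The summed level of 8 astrocyte markers ran from 143 to 161 FPKM over the ASTs, 1211 to 2466 over the A-iSCs, 2834 to 3072 over the P56-NPCs and 238 to 303 over the P0-NPCs. The ASTs thus had the lowest astrocyte marker sum of the 4 groups, which goes against their label. The sum rests on a few abundant genes, and against P0-NPCs 4 of the 8 markers were called higher in ASTs and 4 lower, with none at 0. Aldh1l1, Aqp4, Gja1 and S100b were the 4 higher in ASTs, and Aldh1l1 and Gja1 were at means of 28.6 and 24.8 FPKM in ASTs against 14.2 and 7.16 in P0-NPCs. Against ASTs, 7 of the 8 were called higher in A-iSCs and all 8 in P56-NPCs. The 6 myelinating oligodendrocyte markers summed to 10825 to 12337 FPKM in P56-NPCs, where Mbp, a major myelin protein gene, was at 4994 to 5660 FPKM. The P56-NPC samples thus carried myelin gene RNA at a high level. In these bulk samples, fewer cells of a type and less RNA per cell cannot be told apart.

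In ASTs the ligand genes summed to 281 ± 11.8 FPKM (SD, n = 3), against 22.0 ± 4.15 in A-iSCs, 19.6 ± 0.280 in P56-NPCs and 7.25 ± 0.388 in P0-NPCs. Hbegf made up 90.3% ± 0.473 of this sum in ASTs. The receptor genes summed to 13.0 ± 0.905 FPKM in ASTs, 11.8 ± 1.74 in A-iSCs, 22.6 ± 0.881 in P56-NPCs and 8.21 ± 0.899 in P0-NPCs. The ligand sum was therefore far lower in A-iSCs than in ASTs while the receptor sums of these groups overlapped.

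**Figure D1:**
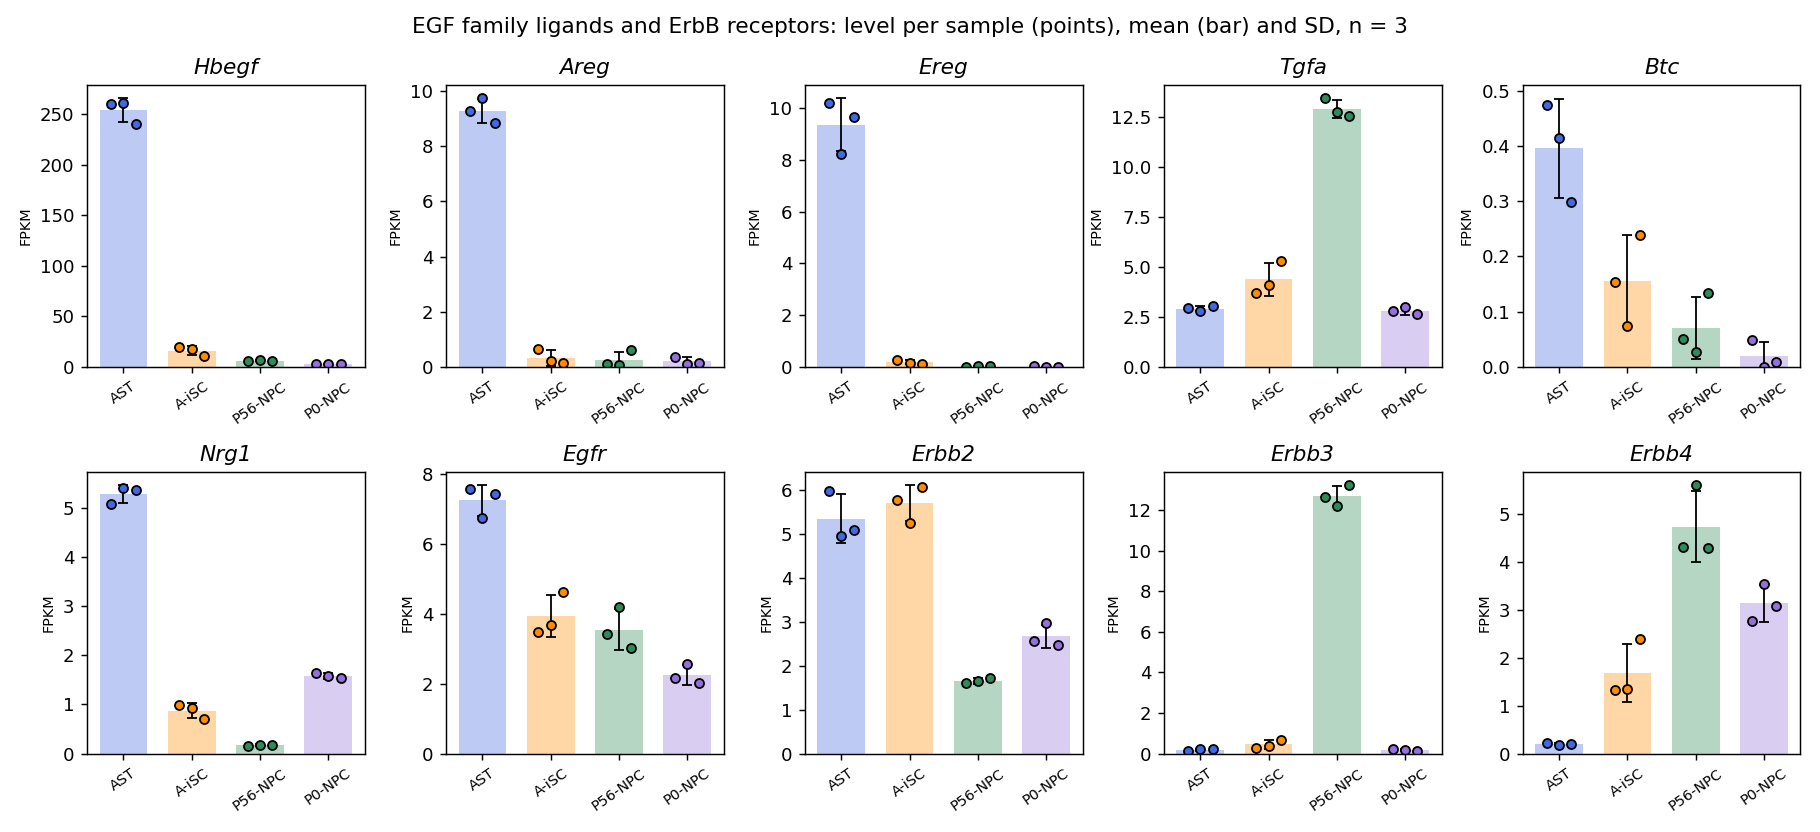
Level of each of the 10 genes in FPKM (linear axis from 0, own scale per panel) in the 3 samples of each group (points), with the group mean (bar) and SD (line). Hbegf, Areg, Ereg, Btc, Nrg1 and Egfr had their highest mean in ASTs, Tgfa, Erbb3 and Erbb4 in P56-NPCs, and Erbb2 in A-iSCs, where its samples overlapped those of ASTs.

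Hbegf encodes heparin-binding EGF-like growth factor, a ligand of EGFR and ERBB4, and lies on chromosome 18 (GRCm38 36504927 to 36515805, minus strand). The AST samples held 260.2, 261 and 240.4 FPKM. The A-iSC samples held 19.9, 17.4 and 11.0 FPKM, the P56-NPC samples 5.96, 6.78 and 5.79 FPKM, and the P0-NPC samples 2.68, 2.75 and 2.52 FPKM. No sample of any group overlapped another group, and the order was ASTs, A-iSCs, P56-NPCs, P0-NPCs. A-iSC replicate 3 had the lowest level of its group. The mean in ASTs was 15.8-fold that in A-iSCs, 41.1-fold that in P56-NPCs and 95.9-fold that in P0-NPCs. On the log2(FPKM + 1) scale, the difference of A-iSCs from ASTs was -3.94 (SE 0.21), and it was -3.70 without A-iSC replicate 3 and -4.10 without A-iSC replicate 1.

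Areg and Ereg encode amphiregulin, an EGFR ligand, and epiregulin, a ligand of EGFR and ERBB4. Both lie on the plus strand of chromosome 5 with Btc, the gene of betacellulin, on the minus strand: Ereg at 91074622 to 91093646, Areg at 91139599 to 91148432 and Btc at 91357261 to 91402994 (GRCm38). Areg was at 9.28, 9.74 and 8.86 FPKM in ASTs, and at 0.653, 0.208 and 0.123 FPKM in A-iSCs. It was at 0.0948, 0.0513 and 0.600 FPKM in P56-NPCs and at 0.360, 0.113 and 0.1195 FPKM in P0-NPCs. The ASTs stood apart from the rest, while the other 3 groups overlapped each other and rested on 1 to 16 fragments a sample. The AST mean was 28.3-fold the A-iSC mean (difference on the log2(FPKM + 1) scale -2.97, SE 0.16).

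Ereg was at 10.2, 8.22 and 9.67 FPKM in ASTs and at 0.276, 0.143 and 0.117 in A-iSCs, a 52.3-fold lower mean (log2 difference -3.13, SE 0.12). In the NPC groups it was close to undetected, with 2 fragments over the 3 P56-NPC samples and 1 over the 3 P0-NPC samples, against 2135 over the 3 AST samples. The ratio of ASTs to P56-NPCs was 957 (95% exact interval 265 to 7911, counting error only), and that of ASTs to P0-NPCs was 3053 (547 to 120651). The exons of Ereg share 141 bases (3.42%) with Gm19610 on the opposite strand, which averaged 3.08 FPKM in ASTs and 0.352 in A-iSCs. Since the strand setting of the counting is not given in the sources used here, reads in that stretch cannot be assigned to either gene. The same holds for 482 bases (4.66%) of Nrg1 shared with Gm26578 and 118 bases (1.82%) of Tgfa shared with Gm43917, both on the opposite strand.

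Btc was low throughout, with 25 to 38 fragments in each AST sample and 0 to 29 in each of the other samples. Its level was 0.396 ± 0.0901 FPKM in ASTs (SD, n = 3), 0.156 ± 0.0825 in A-iSCs, 0.0710 ± 0.0561 in P56-NPCs and 0.0188 ± 0.0259 in P0-NPCs. The AST samples lay above all others, and neighbors in the rest of the order overlapped. Its mean was under 1 FPKM in every group, so it was under the minimum for the main comparisons. Without that minimum its log2 differences from ASTs were -0.27 in A-iSCs, -0.38 in P56-NPCs and -0.45 in P0-NPCs on the log2(FPKM + 1) scale, each called lower by limma.

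Tgfa, the gene of transforming growth factor alpha, a ligand of EGFR, followed another order. It lies on chromosome 6 (86195223 to 86275719, plus strand). The P56-NPC samples held 13.4, 12.7 and 12.5 FPKM and the A-iSC samples 3.71, 4.11 and 5.28 FPKM. The AST samples held 2.92, 2.77 and 3.02 FPKM and the P0-NPC samples 2.78, 2.98 and 2.62 FPKM. P56-NPCs lay above every other sample, A-iSCs lay above ASTs with no overlap, and ASTs and P0-NPCs overlapped (log2 difference of P0-NPCs from ASTs -0.04, 95% interval -0.23 to 0.15, with the sign turning to 0.18 under scaling by library size alone). The A-iSC mean was 1.50-fold the AST mean, a log2 difference of 0.45 (SE 0.13) that was 0.33 without A-iSC replicate 3. The share of Tgfa in the ligand sum was 1.03% ± 0.0857 in ASTs, 20.9% ± 8.24 in A-iSCs, 65.9% ± 2.02 in P56-NPCs and 38.6% ± 1.62 in P0-NPCs.

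Nrg1, the gene of neuregulin 1, a ligand of ERBB3 and ERBB4, lies on chromosome 8 (31814551 to 32884797, minus strand, as deposited). Its end and its exonic length of 15433 bases differ from GENCODE M21, which gives 10351 bases. It was at 5.09, 5.42 and 5.37 FPKM in ASTs, 1.64, 1.57 and 1.53 FPKM in P0-NPCs, 0.997, 0.929 and 0.703 FPKM in A-iSCs and 0.161, 0.182 and 0.181 FPKM in P56-NPCs. The 4 groups did not overlap, and P0-NPCs lay above A-iSCs, unlike for Hbegf. The AST mean was 6.04-fold that in A-iSCs, 3.35-fold that in P0-NPCs and 30.4-fold that in P56-NPCs. In P0-NPCs Nrg1 made up 21.9% ± 0.684 of the ligand sum, against 3.99% ± 0.0962 in A-iSCs and 1.89% ± 0.121 in ASTs.

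The 250 bases before the RefSeq gene start are shown for the 3 ligands with a matched window, Areg, Tgfa and Btc. They are from RefSeq on GRCm38.p6, written 5′ to 3′ on the strand of the gene. Capitals mark matches, on either strand, to the cAMP response element TGACGTCA, the TATA box letters TATAAA or the GC box letters GGGCGG.
Areg, chr5:91139349-91139598, plus strand: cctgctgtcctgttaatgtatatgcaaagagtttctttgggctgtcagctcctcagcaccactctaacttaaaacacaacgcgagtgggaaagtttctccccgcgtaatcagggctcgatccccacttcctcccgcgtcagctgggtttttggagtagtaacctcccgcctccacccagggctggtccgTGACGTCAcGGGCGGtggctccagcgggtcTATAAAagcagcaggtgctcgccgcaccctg
Tgfa, chr6:86194972-86195221, plus strand: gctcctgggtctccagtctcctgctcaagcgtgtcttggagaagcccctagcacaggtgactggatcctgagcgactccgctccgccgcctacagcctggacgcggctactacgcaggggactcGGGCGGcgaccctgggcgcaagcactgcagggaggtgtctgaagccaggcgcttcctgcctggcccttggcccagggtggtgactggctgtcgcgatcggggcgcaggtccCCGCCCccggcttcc
Btc, chr5:91402995-91403244, minus strand: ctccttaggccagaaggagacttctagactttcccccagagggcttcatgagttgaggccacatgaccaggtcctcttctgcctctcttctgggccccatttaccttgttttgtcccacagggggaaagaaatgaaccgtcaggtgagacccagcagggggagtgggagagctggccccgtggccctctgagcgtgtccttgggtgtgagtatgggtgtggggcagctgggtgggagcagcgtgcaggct
In the Areg window the cAMP response element letters lie 61 to 54 bases before the start, the GC box letters 52 to 47 and the TATA box letters 31 to 26 bases before it. Of 32851 promoter windows of the same length, 1.55% held TGACGTCA, 12.4% held TATAAA and 32.7% held GGGCGG. The Tgfa window held GC box letters at 126 to 121 and, on the opposite strand, at 15 to 10 bases before the start, and the Btc window held none of these letters. None of the 3 windows held the AP-1 letters TGANTCA or the TEAD letters GGAATG, which 6.75% and 12.6% of all windows held. These matches are a description of the letters and not of factor binding. RefSeq windows were matched for 6 of the 10 genes, and not for Hbegf, Ereg, Nrg1 or Erbb3.

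Among the receptors, each of ASTs, A-iSCs and P56-NPCs had the highest mean of at least 1 gene. Egfr, the receptor of EGF, amphiregulin and transforming growth factor alpha, lies on chromosome 11 (16752203 to 16918158, plus strand). It was at 7.58, 6.75 and 7.42 FPKM in ASTs, 3.49, 3.69 and 4.63 in A-iSCs, 3.42, 4.19 and 3.03 FPKM in P56-NPCs and 2.17, 2.58 and 2.01 FPKM in P0-NPCs. ASTs lay above and P0-NPCs below all other samples, and A-iSCs overlapped P56-NPCs. The log2 difference of A-iSCs from P56-NPCs was 0.12 (95% interval -0.21 to 0.45), and the samples scaled by library size alone gave 0.55. The AST mean was 1.84-fold the A-iSC mean (log2 difference -0.75, SE 0.12).

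Erbb2, the gene of the receptor without a known ligand, also lies on chromosome 11 (98412470 to 98437716, plus strand). The A-iSC samples held 5.75, 5.25 and 6.06 FPKM and the AST samples 5.98, 4.94 and 5.08 FPKM. The P0-NPC samples held 2.55, 2.97 and 2.47 FPKM and the P56-NPC samples 1.59, 1.64 and 1.72 FPKM. A-iSCs and ASTs overlapped, with a log2 difference of 0.08 (95% interval -0.19 to 0.35) that was -0.03 under upper-quartile scaling, and both lay above both NPC groups. The A-iSC mean was 3.44-fold the P56-NPC mean and 2.14-fold the P0-NPC mean.

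Erbb3, the gene of a neuregulin receptor, lies on chromosome 10 (128567523 to 128589652, minus strand) and was high in a single group. The P56-NPC samples held 12.6, 12.2 and 13.2 FPKM. The AST samples held 0.109, 0.205 and 0.215 FPKM, the A-iSC samples 0.280, 0.378 and 0.688 FPKM, and the P0-NPC samples 0.233, 0.166 and 0.127 FPKM. The P56-NPC mean was 72.0-fold the AST mean, 28.3-fold the A-iSC mean and 72.6-fold the P0-NPC mean, while ASTs and P0-NPCs overlapped. A-iSC samples lay above AST samples with no overlap, at 34, 54 and 111 fragments against 11, 25 and 24, but both means were under 1 FPKM, the minimum for the main comparison. Without that minimum the log2 difference was 0.29 and was not called (limma, adjusted p = 0.110). The 6 myelinating oligodendrocyte markers, at 10825 to 12337 FPKM in P56-NPCs, summed to 17.6 to 19.4 FPKM in ASTs, 54.4 to 75.9 in A-iSCs and 15.2 to 18.2 in P0-NPCs, with Mobp at 0 in all 3 ASTs. The 6 oligodendrocyte precursor markers summed to 1006 to 1053 FPKM in P56-NPCs, 80.5 to 100.2 in ASTs, 117 to 139 in A-iSCs and 45.7 to 74.1 in P0-NPCs. In ASTs this sum was almost all Olig1, at a mean of 84.5 FPKM, while the defining markers Pdgfra and Sox10 were at 0.373 and 0.279 FPKM, against 5.50 and 11.2 FPKM in A-iSCs. Cspg4 went the other way, at 2.92 FPKM in ASTs and 1.93 in A-iSCs, and of the 6 markers 4 were called higher and 1 lower in A-iSCs than in ASTs. The part of these cells in the Erbb3 level was not tested.

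Erbb4, the gene of a receptor for neuregulins and for heparin-binding EGF-like growth factor, lies on chromosome 1 (68032186 to 69108059, minus strand). It was at 4.30, 5.59 and 4.29 FPKM in P56-NPCs, 2.76, 3.54 and 3.08 FPKM in P0-NPCs, 1.33, 1.35 and 2.38 FPKM in A-iSCs and 0.217, 0.176 and 0.200 FPKM in ASTs. The groups did not overlap, and ASTs were the lowest, the opposite end from where they stood for Egfr. The A-iSC mean was 8.53-fold the AST mean (log2 difference 1.14, SE 0.17; 0.97 without A-iSC replicate 3). The log2 difference of P56-NPCs from P0-NPCs was 0.47 and turned to -0.03 under scaling by library size alone. The 7 markers of interneurons and their precursors summed to 85.0 to 105 FPKM in P56-NPCs and 68.7 to 80.6 in P0-NPCs. Their sum was 12.8 to 20.3 FPKM in A-iSCs and 9.46 to 9.77 in ASTs. Of the 4 markers tested in A-iSCs against ASTs, limma called 3 higher and did not call 1. Over all genes tested there, 25.2% were called higher. Within A-iSCs the orders differed, since replicate 3 had the highest Erbb4 level and the lowest marker sum. The part of such cells in the Erbb4 level was not tested.

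**Figure D2:**
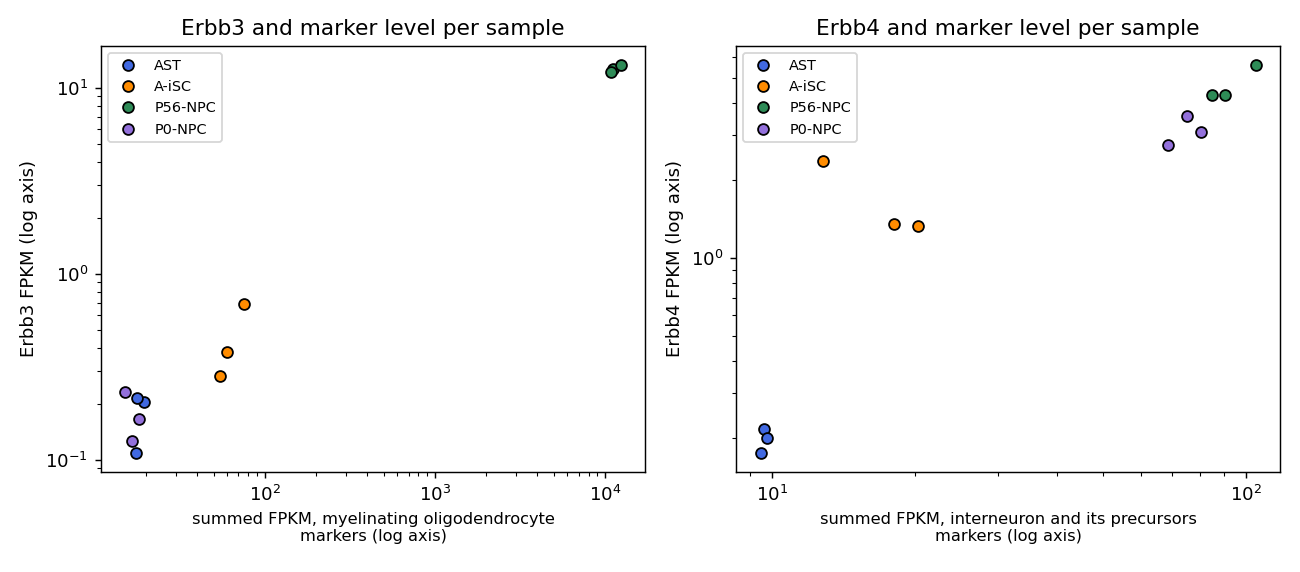
Left, Erbb3 level against the summed level of 6 myelinating oligodendrocyte markers, and right, Erbb4 level against that of 7 markers of interneurons and their precursors, in FPKM on log axes, 1 point per sample. The P56-NPC samples stand apart on both axes for Erbb3, at 12.2 to 13.2 FPKM, and A-iSC replicate 3 has the highest Erbb4 level of A-iSCs, 2.38 FPKM, at their lowest marker sum, 12.8 FPKM.

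The makeup of the receptor RNA differed more between groups than its sum did. In the 3 AST samples Egfr made up 54.6% to 57.4% and Erbb2 39.4% to 43.1% of the receptor sum. In A-iSCs the share of Egfr was 33.5% ± 1.23 (SD, n = 3), that of Erbb2 48.7% ± 4.50 and that of Erbb4 14.1% ± 2.82, against 1.52% ± 0.0600 for Erbb4 in ASTs. In P56-NPCs Erbb3 alone was 56.2% ± 4.05 of the sum, and Erbb2 was 7.31% ± 0.406. P0-NPCs had the highest share of Erbb4, 38.0% ± 2.17, followed by Erbb2 with 32.4% ± 0.579 and Egfr with 27.4% ± 1.07. Shares within a sample do not depend on the scaling between samples.

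**Figure D3:**
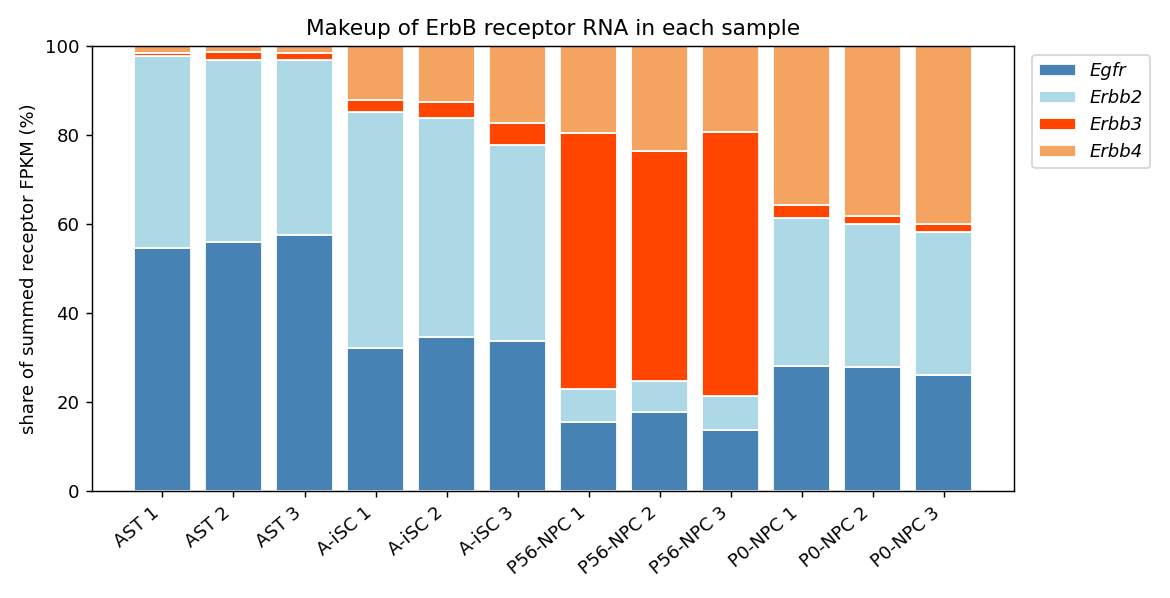
Share of each receptor gene in the summed FPKM of Egfr, Erbb2, Erbb3 and Erbb4 (percent, stacked to 100) in each of the 12 samples. Egfr and Erbb2 fill nearly the whole bar in ASTs, Erbb4 adds 12.2% to 17.3% in A-iSCs, Erbb3 is the largest share in P56-NPCs and Erbb4 in P0-NPCs.

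Each pair of groups was also compared with limma over all genes whose mean was at least 1 FPKM in at least 1 of the 2 groups, with calls made where the p adjusted by Benjamini-Hochberg over all tested genes was under 0.05. Members that passed the filter only through the group where they were high had to differ, and the family was chosen with these values known, so nothing is read from the following counts. A-iSCs and ASTs allowed 8 members to be tested (Btc and Erbb3 did not pass the filter): Tgfa and Erbb4 were called higher in A-iSCs, Hbegf, Areg, Ereg, Nrg1 and Egfr lower, and Erbb2 was not called. Of the 14087 genes tested, 54.8% were called, 25.2% higher and 29.6% lower. P56-NPCs were higher than ASTs for 3 members (Tgfa, Erbb3, Erbb4) and lower for 6 of the 9 tested, where 78.9% of genes were called, 39.1% higher and 39.8% lower. Mitochondrial genes took 16.5% to 17.6% of the fragments in P56-NPCs and 2.94% to 7.03% in all other samples, and the part of this in the P56-NPC differences was not tested. P0-NPCs were higher than ASTs for Erbb4 and lower for 6 of the 8 tested, Tgfa not being called, where 79.0% of genes were called, 38.1% higher and 40.9% lower.

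Among the comparisons without ASTs, A-iSCs were higher than P56-NPCs for Hbegf and Erbb2 and lower for Tgfa, Erbb3 and Erbb4 among 6 members tested, Egfr not being called, and 61.0% of all tested genes were called, 30.1% higher and 30.9% lower. A-iSCs were higher than P0-NPCs for Hbegf, Tgfa, Egfr and Erbb2 and lower for Nrg1 and Erbb4, with 65.1% of all tested genes called, 31.5% higher and 33.6% lower. P56-NPCs were higher than P0-NPCs for Hbegf, Tgfa, Egfr, Erbb3 and Erbb4 and lower for Nrg1 and Erbb2. Of all genes tested there, 78.8% were called, 39.7% higher and 39.0% lower. Under scaling by library size alone the calls of Egfr (log2 fold change 0.01) and Erbb4 (-0.03) in that comparison were lost. The samples of 2 groups did not overlap for 62.7% of tested genes in A-iSCs and ASTs, 81.9% in P56-NPCs and ASTs, 81.4% in P0-NPCs and ASTs, 68.5% in A-iSCs and P56-NPCs, 70.7% in A-iSCs and P0-NPCs and 81.2% in P56-NPCs and P0-NPCs. The comparisons with ASTs share the 3 AST samples. The call of Tgfa in A-iSCs over ASTs was lost when AST replicate 1, 2 or 3 or A-iSC replicate 2 was left out, with adjusted p up to 0.0733 in limma, and that of Tgfa in A-iSCs over P0-NPCs was lost without P0-NPC replicate 3 (adjusted p = 0.0533 in limma).

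**Figure D4:**
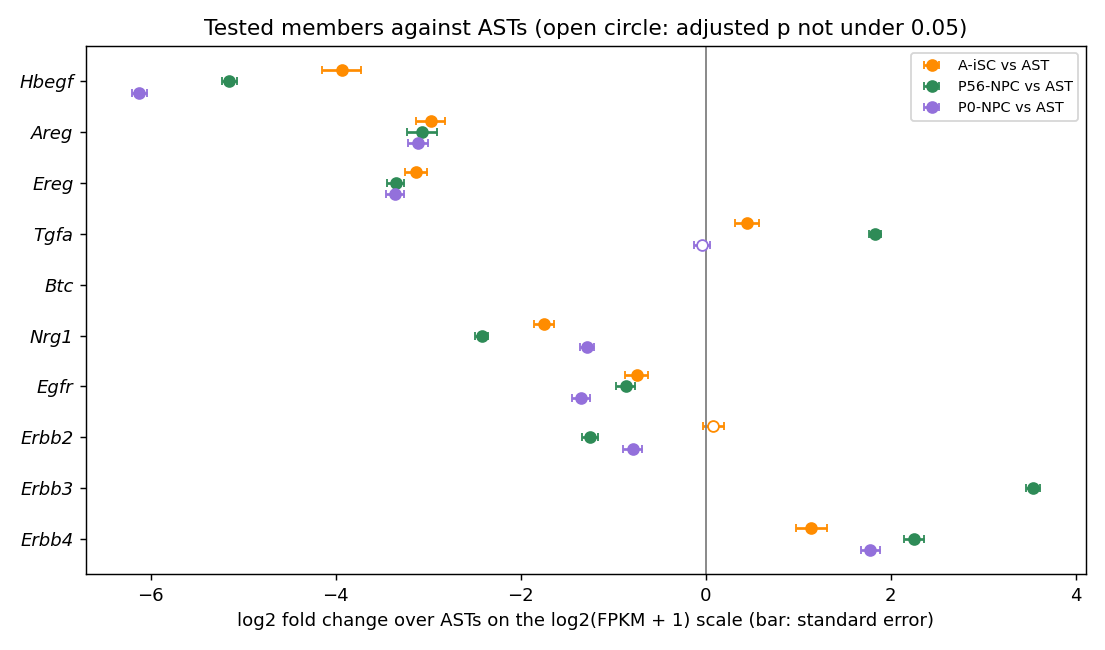
Log2 fold change over ASTs on the log2(FPKM + 1) scale (points) with its standard error (bars) for the tested members in A-iSCs, P56-NPCs and P0-NPCs, 3 samples a group. Hbegf, Areg, Ereg, Nrg1 and Egfr lie left of 0 and Erbb4 right of 0 in each comparison, Erbb2 in A-iSCs and Tgfa in P0-NPCs (open circles) were not called and turn sign under another scaling, and Btc passed no filter.

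Marker sums of other cell types also differed between the groups. The 6 fibroblast or mural markers summed to 156 to 210 FPKM in ASTs, 7.33 to 9.04 in A-iSCs, 10.7 to 15.1 in P56-NPCs and 121 to 133 in P0-NPCs. Col1a1, a collagen gene, made up most of the AST sum, with a mean of 158 FPKM against 34.2 in P0-NPCs. Col3a1 and Lum were higher in P0-NPCs, at 34.9 and 7.42 FPKM against 2.39 and 0.037 FPKM in ASTs, and 4 of the 6 markers were called higher and 1 lower in P0-NPCs than in ASTs by limma. The 6 cycling cell markers summed to 111 to 120 FPKM in ASTs, 19.0 to 21.1 in A-iSCs, 6.91 to 10.2 in P56-NPCs and 41.0 to 53.7 in P0-NPCs. The 6 microglia markers summed to 96.5 to 127 FPKM in ASTs, 1084 to 1495 in A-iSCs, 435 to 458 in P56-NPCs and 63.6 to 73.5 in P0-NPCs. The part of these cells in the ligand levels was not tested.

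The 5 other EGF family ligands were close to undetected or low. Nrg2, a further neuregulin gene, was at 3.29, 2.83 and 2.47 FPKM in ASTs, 1.60, 2.05 and 2.12 in A-iSCs, 1.25, 1.93 and 1.61 in P56-NPCs and 1.31, 1.63 and 1.26 in P0-NPCs. Every sample of the other groups lay below the AST samples. It was lower by limma in P56-NPCs (log2 fold change -0.58, adjusted p = 0.00407) and P0-NPCs (-0.68, adjusted p = 0.000665). In A-iSCs its change of -0.40 had an adjusted p of 0.0346 in limma, a call that was lost when AST replicate 1, AST replicate 2, A-iSC replicate 1 or A-iSC replicate 2 was left out (adjusted p up to 0.134). The Nrg2 call was lost as well with the replicate block (adjusted p = 0.0564), with no filter (adjusted p = 0.0784) and under scaling by library size alone (-0.25, adjusted p = 0.162). Egf itself was at 0.0382 to 0.341 FPKM over all samples, Epgn at 0 to 0.246, Nrg4 at 0.0200 to 0.410 and Nrg3 at 0.0123 to 1.09, with the highest Nrg3 levels in P0-NPCs.

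Genes of ligand shedding, the surface proteases and their iRhom partners that free the ligands, were compared with ASTs. This list and the pathway lists below were chosen with earlier results of these data known, so their counts are a description. Of 7 listed and tested genes, 1 rose and 4 fell in A-iSCs (median log2 fold change -0.75, against -0.06 over all tested genes). In P56-NPCs 6 fell and none rose (median -1.18, against -0.03), and in P0-NPCs all 7 fell (median -0.85, against -0.07), or 4 of the 7 under scaling by library size alone. The shares called lower over all tested genes were 29.6%, 39.8% and 40.9%, and those called higher 25.2%, 39.1% and 38.1%. Adam12, the gene of a protease that can cut heparin-binding EGF-like growth factor, was at 12.4, 9.13 and 12.3 FPKM in ASTs and 0.887, 0.879 and 1.22 in A-iSCs, with no overlap. Its log2 fold change was -2.61 (limma, adjusted p = 1.32e-05) in A-iSCs and -2.93 (adjusted p = 7.97e-07) in P56-NPCs. The largest fall in P0-NPCs was that of Adam9, with a log2 fold change of -3.19 (limma, adjusted p = 1.89e-07), from 127 to 13.0 FPKM. Rhbdf2, which encodes an iRhom that carries ADAM17 to the surface, rose in A-iSCs from 1.86 to 4.34 FPKM (log2 fold change 0.87, adjusted p = 0.00479), while Adam17 was not called there (0.19, adjusted p = 0.416).

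The 13 listed adaptor and Ras-ERK cascade genes split in both directions, with medians near 0. In A-iSCs 3 rose and 3 fell, in P56-NPCs 5 rose and 3 fell, and in P0-NPCs 4 rose and 6 fell (medians 0.01, 0.03 and -0.15, against -0.06, -0.03 and -0.07 over all tested genes). Calls over all tested genes were 25.2% higher and 29.6% lower in A-iSCs, 39.1% and 39.8% in P56-NPCs, and 38.1% and 40.9% in P0-NPCs. The number that fell rested on single samples: it was 1 in A-iSCs without AST replicate 1, AST replicate 3 or A-iSC replicate 2, and 7 in P56-NPCs without AST replicate 2. Hras, which encodes a Ras protein, was at 51.6 FPKM in ASTs and 13.7 in A-iSCs (log2 fold change -1.84, limma adjusted p = 2.37e-05), and Mapk3, the gene of ERK1, went from 51.2 to 83.8 FPKM (0.70, adjusted p = 0.00468). The largest fall in P56-NPCs was that of Shc1, an adaptor gene (-2.28, adjusted p = 3.83e-06), and the largest rise that of Gab1, a docking protein gene (1.64, adjusted p = 5.14e-06). In P0-NPCs Map2k1, the gene of MEK1, fell by 2.15 (limma, adjusted p = 1.9e-06).

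Of 9 listed genes that restrain ErbB receptors, 2 rose and 3 fell in A-iSCs, 3 rose and 2 fell in P56-NPCs, and 2 rose and 6 fell in P0-NPCs (medians -0.04, 0.06 and -0.55). Over all tested genes 25.2%, 39.1% and 38.1% were called higher and 29.6%, 39.8% and 40.9% lower in these comparisons. Errfi1 encodes MIG6, an inhibitor of the EGFR kinase that EGFR signaling induces. It was at 13.0, 10.3 and 12.3 FPKM in ASTs and 4.71, 4.07 and 4.67 in A-iSCs, but at 26.6, 19.5 and 34.0 FPKM in P56-NPCs. The A-iSC samples thus lay below and the P56-NPC samples above all ASTs, with log2 fold changes of -1.22 (limma, adjusted p = 0.000167) and 1.08 (adjusted p = 0.00148). Lrig1, which promotes receptor breakdown, went from 23.3 to 44.8 FPKM in A-iSCs (0.87, adjusted p = 0.0297), a call lost without AST replicate 1, AST replicate 2 or A-iSC replicate 2 (adjusted p up to 0.095), under upper-quartile scaling (0.74, adjusted p = 0.0506) or with no filter (adjusted p = 0.0685). Without AST replicate 1 or 2, 0 of the 9 were called higher in A-iSCs, and 1 was without AST replicate 3 or A-iSC replicate 2. In P56-NPCs 1 of the 9 rose without AST replicate 1, and 4 fell without AST replicate 2 but 1 without AST replicate 1, AST replicate 3, P56-NPC replicate 2 or P56-NPC replicate 3. In P56-NPCs Rnf41, a ubiquitin ligase gene for ERBB3, was lower (-0.60, limma adjusted p = 0.000116). In P0-NPCs Socs5 fell by 1.62 (limma, adjusted p = 4.19e-06) and Cblb rose by 1.11 (adjusted p = 9.18e-05).

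The 15 ERK-responsive genes are commonly induced when the ERK pathway is active, by ErbB receptors or by others. The list was chosen with earlier results of these data known, so its counts are given as a description. In each of A-iSCs, P56-NPCs and P0-NPCs, 11 of the 15 were lower than in ASTs by limma, with 1, 4 and 3 higher and medians of -1.01, -1.29 and -1.76. Over all tested genes 29.6%, 39.8% and 40.9% were called lower and 25.2%, 39.1% and 38.1% higher, with medians of -0.06, -0.03 and -0.07, in these comparisons, which share the AST samples. Plaur, the urokinase receptor gene, was at 47.0, 52.1 and 45.4 FPKM in ASTs, 7.81, 6.20 and 5.29 in A-iSCs, 0.550, 0.595 and 0.650 FPKM in P56-NPCs and 0.668, 0.853 and 0.805 FPKM in P0-NPCs. Its log2 fold changes of -2.74, -4.94 and -4.79 (limma adjusted p = 1.11e-05, 1.42e-08 and 1.53e-08) were the most negative of the list in all 3 comparisons. Dusp5 and Spry4, which encode feedback inhibitors of ERK signaling, fell by 2.56 (adjusted p = 5.37e-05) and 2.10 (adjusted p = 9.11e-06) in A-iSCs.

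Other ERK-responsive genes did not follow this order. Etv1, a transcription factor gene, was at 0.713 to 0.842 FPKM in ASTs, 1.34 to 1.73 in A-iSCs and 9.58 to 10.7 in P56-NPCs (log2 fold changes 0.51 and 2.67, limma adjusted p = 0.00702 and 1.31e-07). Dusp4, a phosphatase gene, was at 33.1 to 41.4 FPKM in P0-NPCs against 6.68 to 14.9 in ASTs, where replicate 2 was the lowest (log2 fold change 1.70, adjusted p = 0.000466). Egr1, an immediate early gene, was at 30.3 FPKM in ASTs and 45.1 in A-iSCs and was not called (0.51, adjusted p = 0.0966). Adam17, Dusp5, Spry4 and Egr1 lie outside the rule for named genes and were chosen after their values were seen. Without AST replicate 2 or under scaling by library size alone, 9 of the 15 were lower in A-iSCs, and 2 were higher without A-iSC replicate 3 or under that scaling.

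**Figure D5:**
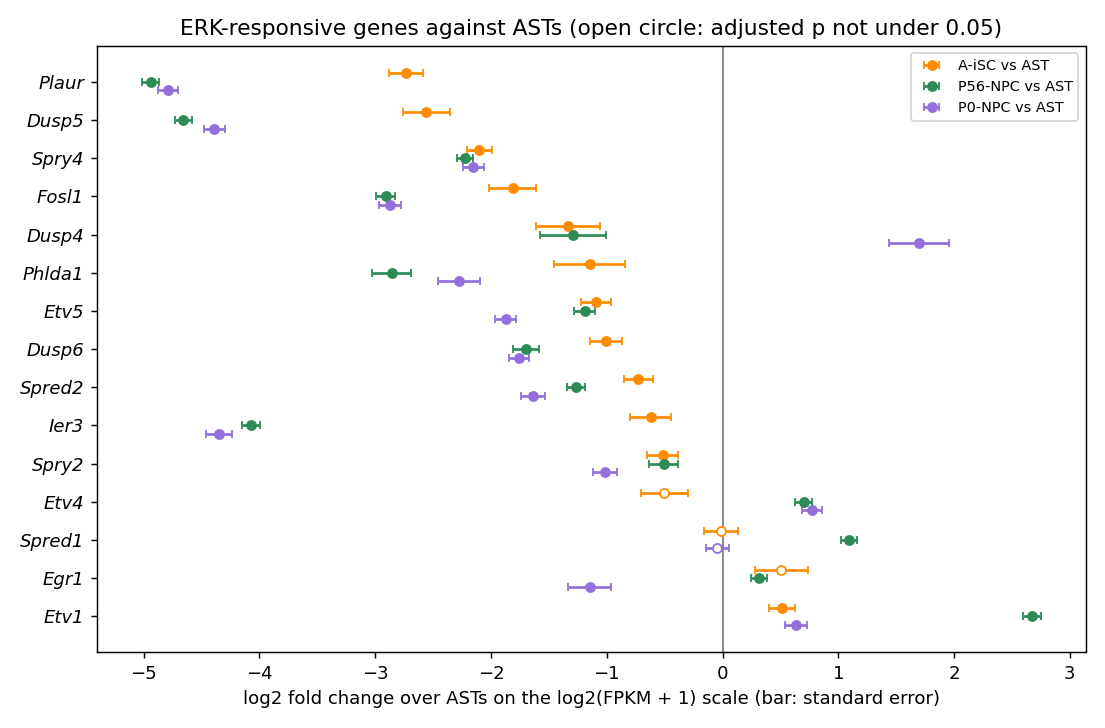
Log2 fold change over ASTs on the log2(FPKM + 1) scale (points) with standard error (bars) for 15 ERK-responsive genes in A-iSCs, P56-NPCs and P0-NPCs, ordered by the change in A-iSCs. In each comparison 11 genes were called lower, Plaur is the most negative in all 3, and Etv1 and Dusp4 reach 2.67 in P56-NPCs and 1.70 in P0-NPCs.

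The genes whose log2(FPKM + 1) was most like that of a member over the 12 samples were found by Pearson correlation, as a description without a test, since the 12 points share 4 groups. For Hbegf they were Csf1 (r = 0.999), Tgfb3 (0.998) and Lipt1 (0.993). Csf1, the gene of macrophage colony-stimulating factor, was at 273 to 277 FPKM in ASTs, 17.3 to 23.3 in A-iSCs, 9.82 to 9.93 in P56-NPCs and 3.68 to 4.38 in P0-NPCs, the order of Hbegf. For Nrg1 they were Efnb2 (0.997), Sphk1 (0.996) and Rrn3 (0.994), and Efnb2, an ephrin gene, had P0-NPCs above A-iSCs as Nrg1 did. For Egfr they were C1ql3 (0.990), Iars2 (0.988) and Ano3 (0.988). For Erbb3 they were Tmem88b, Baalc and Mal (0.998 each), and Mal, a gene of myelin, was at 632 to 829 FPKM in P56-NPCs and 0.754 to 3.71 FPKM in all other samples.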

How the data were processed

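RNA-seq of 12 mouse samples was analysed (3 in each of 4 groups). The authors deposited 1 table of values that were recognised as FPKM, because values times the deposited gene length fell on whole multiples of 1 step per sample (100% of values above 0, within 0.01). The paper's methods name paired-end NEBNext Ultra libraries on an Illumina platform. The submitters' processing notes list Bowtie 0.12.2 and mm8, with no role given, while 54899 of the 55154 genes found in GENCODE M21 by identifier sat at the identical GRCm38 position, so positions are on GRCm38. The strand setting is not given in the sources used here. The recovered library size behind each value was 0.744 to 1.22 times the fragments counted, so the values already held a scaling between samples. Precision follows from 17077780 to 24452419 fragments a sample, and the intervals of Ereg ratios and the limits for a count of 0 cover counting error only, while intervals of log2 differences come from limma and the spread between samples.

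Groups were compared in pairs with limma 3.58.1 (lmFit and eBayes with a trend) in R 4.3.3 on log2(FPKM + 1), over genes with a mean of at least 1 FPKM in at least 1 of the 2 groups. The pseudocount of 1 understates changes of low genes. Calls are at a Benjamini-Hochberg adjusted p under 0.05 over all tested genes. The script was run on simulated data, which checks the code and not the calls made here. Alternatives were scaling by library size alone or by the upper quartile, no filter, a pseudocount of 0.1, all 4 groups in 1 model, the replicate number as a block, limma-voom on recovered fragments, and each sample left out. Whether shared replicate numbers pair the samples is not known. Correlations of same-numbered deviations ran from -0.378 to 0.427 between ASTs and A-iSCs, and 2 of these 3 were over 0.1. The members, gene lists and marker lists were chosen with earlier results of these data known. Named genes were all 10 members, the 5 other EGF family ligands, the called gene with the largest rise and fall of each pathway list in each comparison with ASTs, and the 3 genes most correlated with Hbegf, Nrg1, Egfr and Erbb3. The values of 1 gene so named are not reported here. Exon overlaps were taken from GENCODE M21 and promoter sequences from RefSeq on GRCm38.p6. The same alternatives for list counts and list genes were chosen after seeing the data.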

Additional observations from a re-analysis of the deposited data

How the results depend on the processing

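Of 44 tested differences of members, 37 kept their direction and their side of the threshold under every alternative, and 12 of 572 alternative values did not. Scaling by library size alone shifted the median log2 fold change of all genes by 0.19 (A-iSCs to ASTs), -0.31 (P56-NPCs to ASTs), 0.27 (P0-NPCs to ASTs), 0.47 (A-iSCs to P56-NPCs), -0.08 (A-iSCs to P0-NPCs) and -0.53 (P56-NPCs to P0-NPCs). Under it Tgfa in P0-NPCs to ASTs was 0.18 and Erbb4 in P56-NPCs to P0-NPCs was -0.030, both turned in sign, Egfr in P56-NPCs to P0-NPCs was 0.01 and no longer called, and Egfr in A-iSCs to P56-NPCs was 0.55 and called. Upper-quartile scaling turned Erbb2 in A-iSCs to ASTs to -0.030. Tgfa in A-iSCs to ASTs was no longer called under upper-quartile scaling (0.35, adjusted p = 0.0592 in limma) or with no filter (adjusted p = 0.0507). The replicate block changed no member's call, though it ended that of Nrg2 in A-iSCs to ASTs, and gave 3694 genes higher and 4250 lower in A-iSCs than in ASTs, against 3550 and 4165 without it. Same-numbered samples correlated best in 9 of 36 cases.

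Counts over all genes stayed within 1.5 times except the following. Without a filter 8597 genes were higher in P0-NPCs than in ASTs (5713 with it). The library-size scaling gave 8333 genes higher and 2860 lower in A-iSCs than in P56-NPCs (4532 and 4643 in the main comparison). It gave 3441 higher and 9432 lower in P56-NPCs than in P0-NPCs (6115 and 6011 in the main comparison). The share of calls that were higher moved from 46.0% to 60.4% (A-iSCs to ASTs), 49.5% to 37.7% (P56-NPCs to ASTs), 48.2% to 59.4% (P0-NPCs to ASTs), 49.4% to 74.4% (A-iSCs to P56-NPCs) and 50.4% to 26.7% (P56-NPCs to P0-NPCs). Why the counts and shares moved this far was not tested. Counts of list genes moved by over 1.5 times under scalings, the filter and the block too. In A-iSCs to ASTs, 0 restraining genes were higher under upper-quartile scaling or with no filter (2 in the main comparison). Likewise 1 cascade gene was lower under library-size scaling (3 in the main comparison). In P56-NPCs to ASTs, library-size scaling gave 3 higher and 7 lower adaptor and cascade genes and 1 higher and 5 lower restraining genes. Upper-quartile scaling gave 6 lower cascade genes (3 in the main comparison) and 1 higher restraining gene (3 in the main comparison). The block gave 1 higher restraining gene and 1 higher shedding gene. Depth limits Btc, Ereg and Areg outside ASTs, which rest on few fragments.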
